A study of Mus musculus with 12 samples.

Results

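Cholesterol synthesis and sterol handling was followed through 35 genes chosen by name, of which 31 had a row under that symbol among the 18090 gene rows of the array table. The genes HMGCS1, MVK, FDFT1 and ACACA had no row under their symbol and are not described. The RNA was total RNA of an entire segment of proximal small intestine from mice labelled P6, on a mixed C57/BL6;129Ola background, and was read on a 1-colour Illumina array. Symbols are in upper case as the table has them. The 6 mutant mice carried villinCre;Shp2fl, in which a Cre recombinase driven by the villin promoter in the intestinal epithelium acts on a floxed allele of PTPN11, the gene of the phosphatase Shp2. The other 6 mice were labelled control, and the labels used here do not state their genotype. Because stroma, muscle, blood and epithelium were read together, fewer cells of a type and less RNA per cell cannot be told apart.

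Cells make cholesterol from acetyl-CoA in a long chain of enzymes, first to mevalonate and farnesyl diphosphate, then through squalene and lanosterol to the sterol itself. The transcription factors SREBP-1 and SREBP-2 switch on these genes when sterol in the endoplasmic reticulum is low. Their escort SCAP carries them to the Golgi for cleavage, and the Insig proteins hold SCAP back when sterol is plentiful. Enterocytes also take up cholesterol through NPC1L1, esterify it with SOAT2, and return sterols to the gut lumen through the half-transporters ABCG5 and ABCG8, which are targets of the oxysterol receptor LXR.

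Levels are deposited array intensities in arbitrary units (a.u.), background-subtracted and normalized before deposit. Differences are mutant minus control on the log2 scale with their SE, from limma across all 18090 rows after an offset of 50 was added, and a difference was called at a Benjamini-Hochberg adjusted p under 0.05. The offset makes the log2 difference of dim genes smaller than the fold of their intensities. Of all rows 9.19% were called, 4.71% higher and 4.48% lower in the mutants. The groups did not overlap, with every mutant above every control, in 2.48% of rows, and the reverse held in 2.21%. The median log2 difference of all rows was -0.01. Arrays correlated at 0.983 to 0.994 within groups. Control 4 and mutant 1 stood apart, with the pancreatic elastase ELA2A at 16839.6 and 7043.9 a.u. against at most 1366.1 in the other mice. Without these mice the calls of the members described below stayed, and LSS was added. PTPN11 itself was not lower in the mutants, at 1288 ± 124 a.u. (SD, n = 6) in controls and 1498 ± 118 in mutants (log2 difference 0.21, SE 0.07, limma adjusted p = 0.0763). The probe's place relative to the floxed exons is unknown here, and the row is therefore no check of the mutant label.

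Enzymes of cholesterol synthesis were higher in the mutants at some steps of the chain and showed no call at the others. Of the 15 enzymes with a row, 4 were called higher (26.7%) and none lower, against 4.71% of all rows called higher. These shares are not matched for level. Both group means lay at or under a noise limit of 27.8 a.u. (described below) in 7888 of the 18090 rows. This held for 1 of the 15 enzymes and 3 of the 31 members. With dim rows left out, 876 of a smaller number of rows were called higher, against 852 of all 18090, a share above 4.71%. The median log2 difference of the 15 enzymes was 0.24. The 4 called enzymes were SQLE, CYP51, FDPS and MVD. Among all 31 members 5 were called (16.1%) and the median log2 difference was 0.07. The single call among the other 16 members was INSIG2, which fell.

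**Figure D1:**
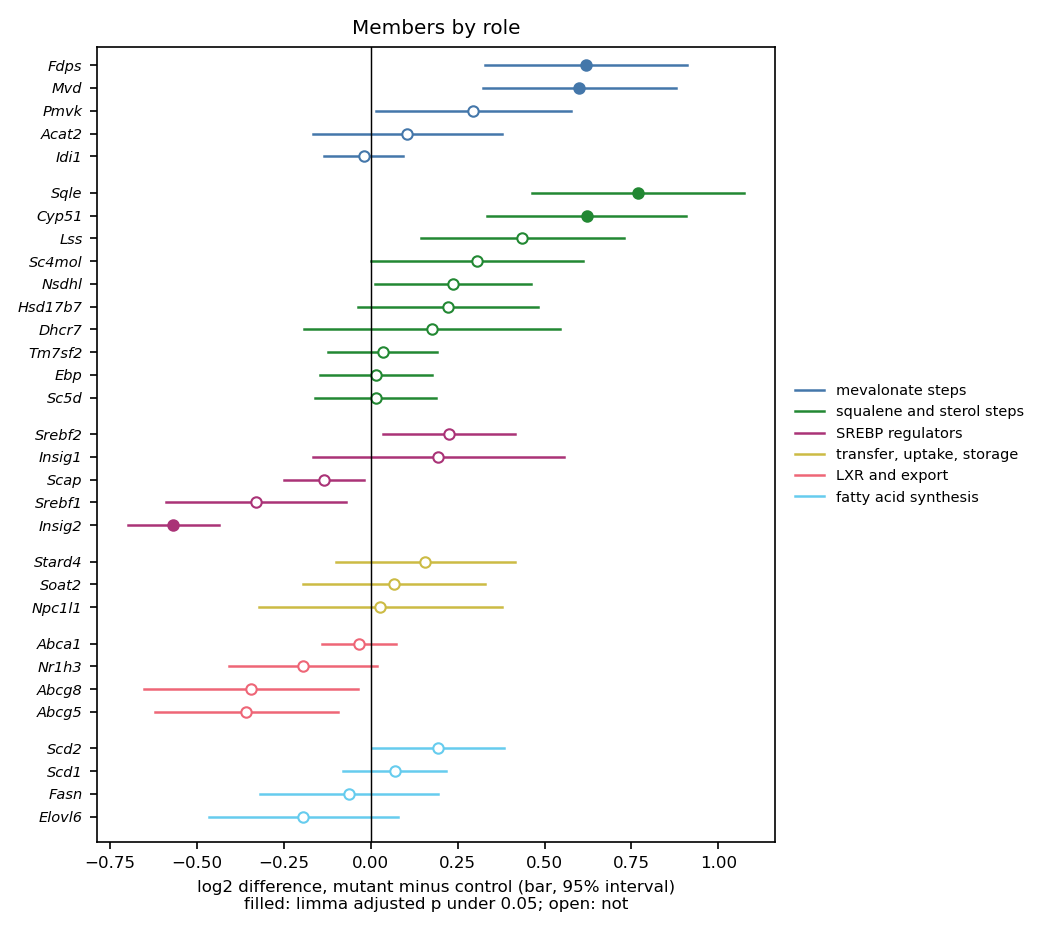
Log2 difference between mutants and controls for the 31 members, grouped by role (points, limma estimate; bars, 95% interval; filled points, adjusted p under 0.05). The 4 enzymes called higher lie between 0.60 and 0.77, and INSIG2 lies at -0.57.

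Promoter sequence is shown for the called members that RefSeq's promoter table of build GRCm38.p6 lists, CYP51, MVD and INSIG2, since SREBPs act at promoters together with the factor NF-Y, which binds the letters CCAAT. Each line gives the 250 bases before the annotated start, 5′ to 3′ on the gene's strand, and capitals mark CCAAT on either strand (ATTGG is the same box read on the other strand). The stretches are chr5:4104698-4104947 (minus strand) for CYP51, chr8:122443423-122443672 (minus strand) for MVD and chr1:121332590-121332839 (minus strand) for the first of the listed starts of INSIG2.
CYP51: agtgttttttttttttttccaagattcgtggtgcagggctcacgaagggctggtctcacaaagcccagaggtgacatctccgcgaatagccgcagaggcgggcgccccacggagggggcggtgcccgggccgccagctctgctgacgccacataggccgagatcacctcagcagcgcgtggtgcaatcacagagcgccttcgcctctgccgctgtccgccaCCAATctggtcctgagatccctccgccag
MVD: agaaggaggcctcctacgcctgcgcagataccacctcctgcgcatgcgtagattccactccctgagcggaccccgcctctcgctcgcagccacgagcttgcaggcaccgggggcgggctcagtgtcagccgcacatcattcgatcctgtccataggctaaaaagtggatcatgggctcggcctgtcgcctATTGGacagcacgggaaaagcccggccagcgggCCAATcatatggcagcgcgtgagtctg
INSIG2: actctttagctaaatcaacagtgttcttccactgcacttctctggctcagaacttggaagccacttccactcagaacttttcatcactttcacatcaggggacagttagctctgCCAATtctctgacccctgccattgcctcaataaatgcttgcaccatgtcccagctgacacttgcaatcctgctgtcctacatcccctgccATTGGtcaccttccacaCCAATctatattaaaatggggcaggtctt

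CYP51 held 1 such box, MVD 2 and INSIG2 3 in these stretches. In the whole windows of 300 bases (250 before and 50 after the start), CCAAT on either strand occurred in 12 of the 13 measured enzymes with a window (92.3%), ACAT2 being the exception, against 41.1% of the 27025 genes in the table. Among the other measured members it occurred in 8 of 12 (66.7%), with the neighbours ABCG5 and ABCG8 both counted although they share a box. A gene with several windows was counted if any of them held the box. There were 16 windows for the 13 enzymes, 19 for the 12 other members and 32851 for the 27025 genes. The 41.1% covers genes whether or not they were measured here. The shares are therefore not matched for windows per gene or for expression. The letters TCACNCCAC, a form of the sterol regulatory element to which SREBPs bind, were in no window of a measured member and in 1.44% of all genes. The only member in whose window they were found was HMGCS1, which had no row. A direct repeat of AGGTCA with 4 bases between its copies, a form of the LXR element, was in no member's window and in 0.0148% of genes. A match describes the letters and shows no binding, and the absence of 1 form from these windows says nothing of other forms or places. Enzymes that were not called, such as EBP, SC5D and TM7SF2, held the CCAAT box too.

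SQLE, squalene epoxidase, which makes the first oxygenated sterol precursor, had the highest log2 difference among the members. It ranged from 533.3 to 1076.7 a.u. in controls (median 822.2) and from 1127.7 to 1683.5 in mutants (median 1378.5). Every mutant lay above every control, with control 6 lowest and control 4 nearest to the mutants. The mean went from 806.4 ± 195.9 to 1406 ± 215 a.u. (SD, n = 6 each), a rise of 74.3% and a log2 difference of 0.77 (SE 0.14, limma adjusted p = 0.0039).

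CYP51, the demethylase that works on lanosterol, rose from 650.2 ± 122.3 to 1036 ± 196 a.u. (log2 difference 0.62, SE 0.13, limma adjusted p = 0.00993). Controls read 467.6 to 800.9 with a median of 668.0, and mutants 764.3 to 1318.2 with a median of 1037.5. Only mutant 2 fell within the control range, below control 1. FDPS, which builds farnesyl diphosphate for sterols, dolichol and protein prenylation, read 1654.0 to 2585.3 a.u. in controls (median 2135.8) and 2623.0 to 4248.4 in mutants (median 3290.5). The groups did not overlap, although mutants 1 and 2 lay just above controls 4 and 5. Its log2 difference was 0.62 (SE 0.14, limma adjusted p = 0.0108). MVD, the decarboxylase that yields isopentenyl diphosphate, read 192.2 to 349.9 a.u. in controls (median 251.8) and 341.9 to 557.6 in mutants (median 420.2). Mutant 2 lay below control 5 and every other mutant above all controls, for a log2 difference of 0.60 (SE 0.13, limma adjusted p = 0.0101).

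**Figure D2:**
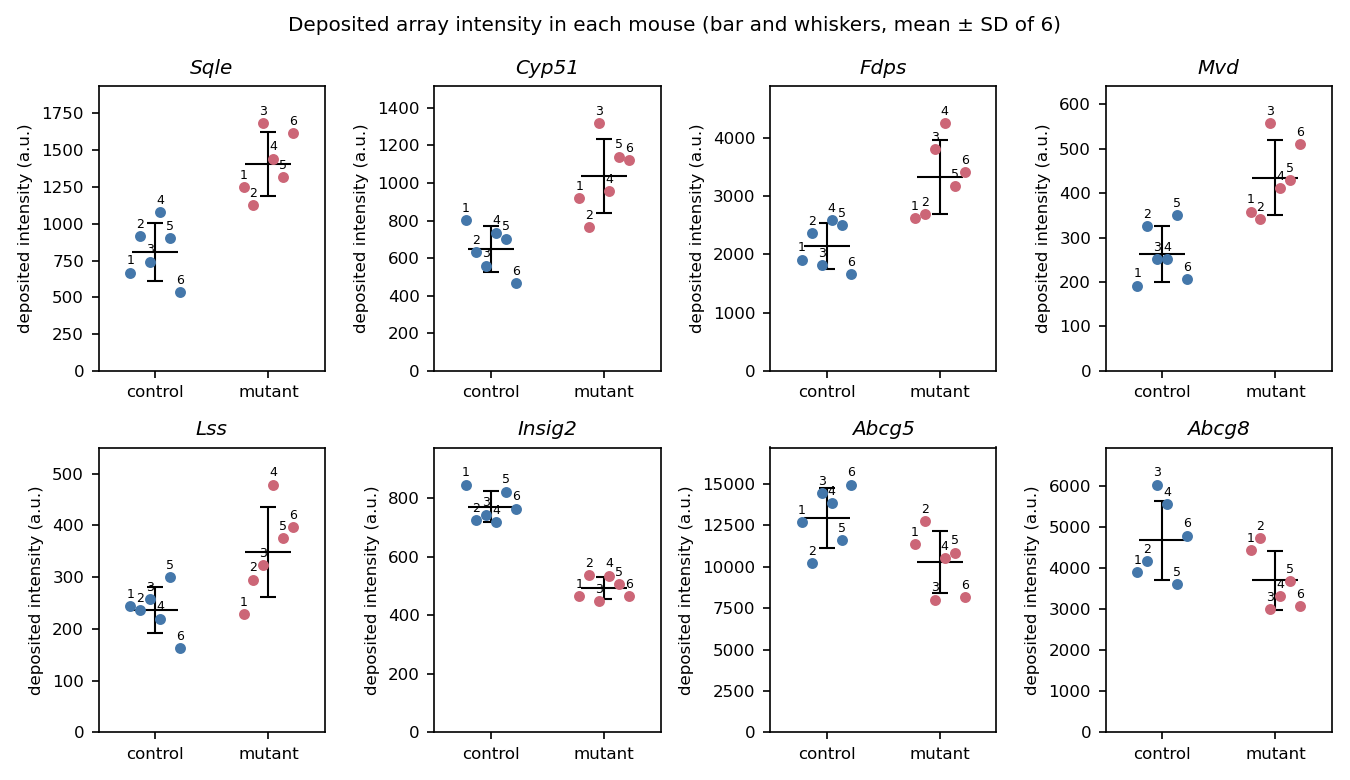
Deposited intensity (a.u., linear axis from 0) of 8 members in each mouse, numbered by its label, with the mean and SD of 6 mice per group. SQLE and FDPS are higher in every mutant than in any control and INSIG2 is lower in every mutant, while LSS, ABCG5 and ABCG8 overlap.

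LSS, lanosterol synthase, the next enzyme after SQLE, read 162.7 to 299.7 a.u. in controls (median 240.2) and 228.4 to 478.5 in mutants (median 349.1). Mutants 1 and 2 lay within the control range and the other 4 above it. Its log2 difference of 0.44 (SE 0.14, 95% interval 0.15 to 0.73) missed the threshold (limma adjusted p = 0.061). LSS was called in only 4 of 20 alternatives, and the limma adjusted p reached 0.14 in the others. Without mutant 1, the lowest mutant, the difference was 0.53 and was called (adjusted p = 0.0177). Leaving out the dim rows of the table also brought the call (0.0415).

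The remaining enzymes were not called. In the mevalonate part, phosphomevalonate kinase PMVK had a log2 difference of 0.29 (95% interval 0.01 to 0.58, limma adjusted p = 0.202), and 5 of 6 mutants lay above the control mean. Mutant 4 was highest at 339.2 a.u., against 177.1 to 232.9 in the other mutants. ACAT2, the cytosolic thiolase at the entry of the pathway, differed by 0.11 (-0.17 to 0.38, adjusted p = 0.728). IDI1, isopentenyl diphosphate isomerase, read 12.9 to 22.2 a.u. in controls and 7.2 to 21.2 in mutants. All of these values lie under the noise limit of 27.8 a.u., taken from the most negative value in the table, so the IDI1 row carries no measurable difference.

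After lanosterol, the methylsterol oxidase SC4MOL (now Msmo1) had a log2 difference of 0.31 (95% interval 0.00 to 0.61, limma adjusted p = 0.228), and all 6 mutants lay above the control mean. NSDHL, a dehydrogenase of sterol demethylation, differed by 0.24 (0.01 to 0.46, adjusted p = 0.204), with mutant 5 highest at 310.4 a.u. For the ketoreductase HSD17B7 the difference was 0.22 (-0.04 to 0.48) and for DHCR7, the last reductase, 0.18 (-0.19 to 0.54). The reductase TM7SF2, the isomerase EBP and the desaturase SC5D lay closest to no difference, at 0.03 (-0.12 to 0.19), 0.01 (-0.15 to 0.18) and 0.01 (-0.16 to 0.19). EBP was well measured at 1527 ± 149 a.u. in controls and 1536 ± 150 in mutants, and TM7SF2 at 33.4 ± 10.0 and 35.4 ± 7.3 was near the noise limit.

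Single mice stood low or high across many of the enzymes. Over the 14 enzymes above the noise limit, control 6 was the lowest control for 8, among them SQLE, CYP51, FDPS, LSS, PMVK and HSD17B7, and its median deviation from the mean of all 12 mice was -0.54 on the log2 scale. The medians of the other controls ran from -0.28 to 0.03. Mutants 1 and 2 had the lowest medians of their group, 0.03 and 0.01, and were the lowest mutant for 4 and 5 of the 14. Mutant 4 was highest for 6 and mutant 3 for 4. In mutant 4, 10 of the 14 enzymes lay above every control, in mutants 5 and 6 it was 8 each, in mutant 3 it was 7, and in mutants 1 and 2 it was 4 and 3. These are descriptions of 12 mice, and no test was made of them.

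**Figure D3:**
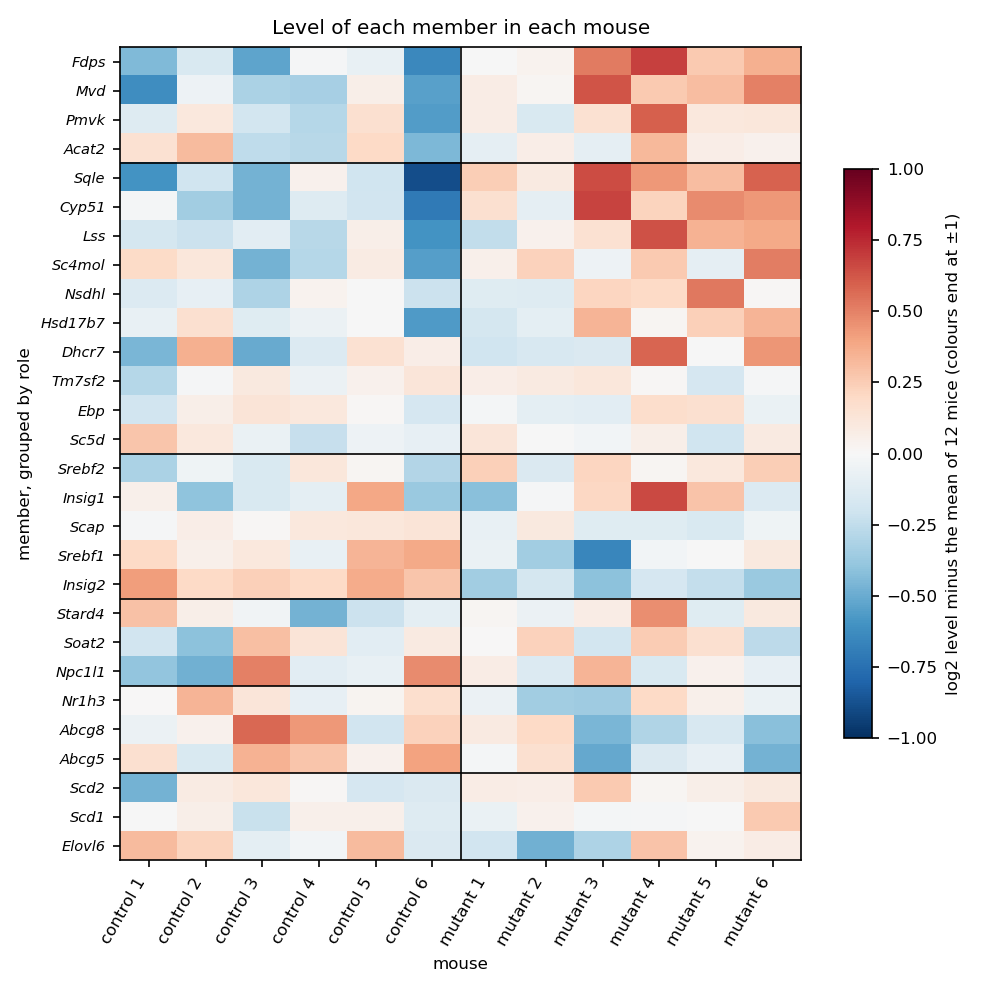
Log2 level of the 28 members above the noise limit in each of the 12 mice, less the mean of the 12 (red, above; blue, below; lines separate the roles and the groups). Control 6 is blue through most synthesis enzymes, mutants 3 to 6 are mostly red in the upper rows, and INSIG2 is red in every control and blue in every mutant.

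Among the regulators of SREBP, INSIG2 fell and no other was called. INSIG2 is an endoplasmic reticulum protein that keeps the SCAP and SREBP complex from leaving for the Golgi. It read 718.0 to 845.1 a.u. in controls (median 753.1) and 447.0 to 537.1 in mutants (median 485.9). The groups were far apart for their spread, as the lowest control exceeded the highest mutant by more than either group's SD of 52.8 and 38.8. The mean fell by 35.9%, from 769.1 to 492.6 a.u., with a log2 difference of -0.57 (SE 0.06, limma adjusted p = 7.31e-05). Its paralog INSIG1, an SREBP target, was at 252.3 ± 69.9 a.u. in controls and 303.8 ± 96.8 in mutants (log2 difference 0.19, 95% interval -0.17 to 0.56, adjusted p = 0.589). The INSIG1 groups overlapped widely, with mutant 4 highest at 464.7 and mutant 1 lowest at 185.3. Whether INSIG1 and INSIG2 differ in their response was not tested.

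SREBF2, which encodes SREBP-2, the main activator of cholesterol synthesis, had a log2 difference of 0.23 (95% interval 0.04 to 0.41, limma adjusted p = 0.142). It read 313.5 to 448.7 a.u. in controls (median 376.7) and 364.5 to 503.2 in mutants (median 464.7), and 5 of 6 mutants lay above the control mean. SREBF1, which encodes SREBP-1, differed by -0.33 (-0.59 to -0.07, adjusted p = 0.111). It read 161.9 to 248.3 a.u. in controls and 83.1 to 191.6 in mutants, and all 6 mutants lay below the control mean, mutant 3 the furthest. SCAP, the escort, was at 176.2 ± 10.2 and 154.5 ± 15.1 a.u. (log2 difference -0.13, adjusted p = 0.146). Mutant 2 alone among the mutants read within the upper part of the SCAP control range, at 182.3 a.u., and without it the difference of -0.17 was called (adjusted p = 0.0496).

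The members for sterol transfer, uptake and storage, STARD4, NPC1L1 and SOAT2, were not called. STARD4, a cytosolic sterol carrier, differed by 0.16 (95% interval -0.10 to 0.42, limma adjusted p = 0.526), with mutant 4 highest at 2683.8 a.u. NPC1L1, the cholesterol importer of the brush border, was at 3127 ± 943 a.u. in controls and 3116 ± 428 in mutants (0.03, -0.32 to 0.38, adjusted p = 0.959). Its controls split, with controls 3 and 6 at 4323.9 and 4243.8 and the others between 2175.6 and 2915.4. SOAT2, which esterifies cholesterol for storage and secretion, differed by 0.07 (-0.20 to 0.33, adjusted p = 0.837).

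The export pair ABCG5 and ABCG8 lay lower in most mutants, yet neither passed the threshold. ABCG5 read 10210.5 to 14948.7 a.u. in controls (median 13255.6) and 8002.7 to 12737.7 in mutants (median 10680.0). Mutants 3 and 6 lay furthest below the controls, while controls 1, 2 and 5 lay within the mutant range. Its log2 difference was -0.36 (SE 0.12, 95% interval -0.62 to -0.09, limma adjusted p = 0.0888), with all 6 mutants below the control mean. The call appeared without control 2 (-0.43, adjusted p = 0.0444) or without mutant 2 (-0.43, 0.0393). ABCG8 read 3613.9 to 6034.6 a.u. in controls (median 4487.4) and 3008.1 to 4723.7 in mutants (median 3508.5). Its difference was -0.35 (SE 0.14, adjusted p = 0.168), and mutants 3 and 6 were again the lowest, at 3008.1 and 3072.8. The median deviation of the synthesis enzymes was 0.15 in mutant 3 and 0.35 in mutant 6 on the log2 scale, with ABCG5 deviations of -0.52 and -0.47. In mutants 4 and 5 the enzyme medians were 0.26 and 0.20, with ABCG5 at -0.14 and -0.08. In mutants 1 and 2 they were 0.03 and 0.01, with ABCG5 at -0.02 and 0.16. A link between export and synthesis across the mice was not tested.

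Both transporters are transcribed away from each other from neighbouring starts, which is why the stretch between them is shown. It is 109 bases long in GRCm38.p6, chr17:84683012-84683120, printed 5′ to 3′ on the plus strand, the strand of ABCG8. It holds none of the 3 motifs searched, so no letter is in capitals. The promoter windows of both genes reach beyond it and share a CCAAT box directly beside it. That box lies at the first transcribed base of ABCG5 and begins 114 bases before the ABCG8 start. ABCG5 holds no other, while ABCG8 holds a further box 175 bases before its start.
Between ABCG5 and ABCG8: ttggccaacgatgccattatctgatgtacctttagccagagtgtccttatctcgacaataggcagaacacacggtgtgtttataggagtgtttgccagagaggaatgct

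NR1H3, which encodes the receptor LXR alpha, was at 610.8 ± 74.2 a.u. in controls and 527.2 ± 89.0 in mutants (log2 difference -0.19, 95% interval -0.41 to 0.02, limma adjusted p = 0.282). ABCA1, which loads cholesterol onto apolipoprotein A-I at the basal side of enterocytes and is another LXR target, read below 0 in all 12 mice (-15.8 to -6.2 a.u.), so its row gave no level.

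Fatty acid synthesis, which SREBP-1 governs, showed no call among its 4 measured members. ELOVL6, an elongase of long-chain fatty acids, was the only one far above the noise limit, at 3759 ± 531 a.u. in controls and 3311 ± 644 in mutants (log2 difference -0.19, 95% interval -0.47 to 0.08, limma adjusted p = 0.438). Mutants 1, 2 and 3 lay below every control and mutants 4 to 6 within the control range. The desaturase rows were dim. SCD2 was at 55.7 ± 17.9 and 72.2 ± 8.4 a.u. (0.19, 0.00 to 0.38, adjusted p = 0.223), and all 6 mutants lay above the control mean. SCD1 was at 37.3 ± 8.8 and 42.6 ± 10.4 a.u. (adjusted p = 0.658), with mutant 6 highest at 63.0. FASN, fatty acid synthase, had both means under the noise limit, at 23.6 and 19.0 a.u. With ACACA not in the table, the first committed step of the chain could not be followed.

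A wider set of 90 genes of the same pathway, of which 79 had a row, gave 6 called higher and 8 lower (17.7%, against 9.19% of all rows), with a median log2 difference of -0.01. Both group means lay at or under the noise limit in 15 of the 79 rows, against 7888 of all 18090. Among the rows for synthesis and its branches 1 rose and 2 fell of 15. CYB5B, an electron donor of the outer mitochondrial membrane, rose from 9479 ± 434 to 11616 ± 1419 a.u. (limma adjusted p = 0.0247), and lost the call without control 3 or mutant 6 and with an offset of 16 (at most 0.0599). ACAT1, the mitochondrial thiolase of ketone body metabolism, fell from 322.0 ± 40.6 to 202.8 ± 58.3 a.u. (log2 difference -0.54, SE 0.12, limma adjusted p = 0.0125), with every mutant below every control.

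TMEM97, an endoplasmic reticulum protein that binds sterol ligands, lay just over the threshold with a log2 difference of 0.37 (95% interval 0.13 to 0.60, limma adjusted p = 0.0526), and it passed in 4 of 20 alternatives, among them without control 2 or control 4 (0.0116 at the lowest). Of the 17 measured genes of the SREBP axis outside the members 1 was called (5.88%, against 9.19% of all rows). This was ERLIN1, an endoplasmic reticulum protein that binds cholesterol, which fell from 681.6 ± 54.0 to 504.9 ± 115.0 a.u. (limma adjusted p = 0.0412). That call was lost in 12 of 20 alternatives, among them without control 1, 3, 4, 5 or 6 or mutant 1, 3, 5 or 6 (at most 0.128).

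**Figure D4:**
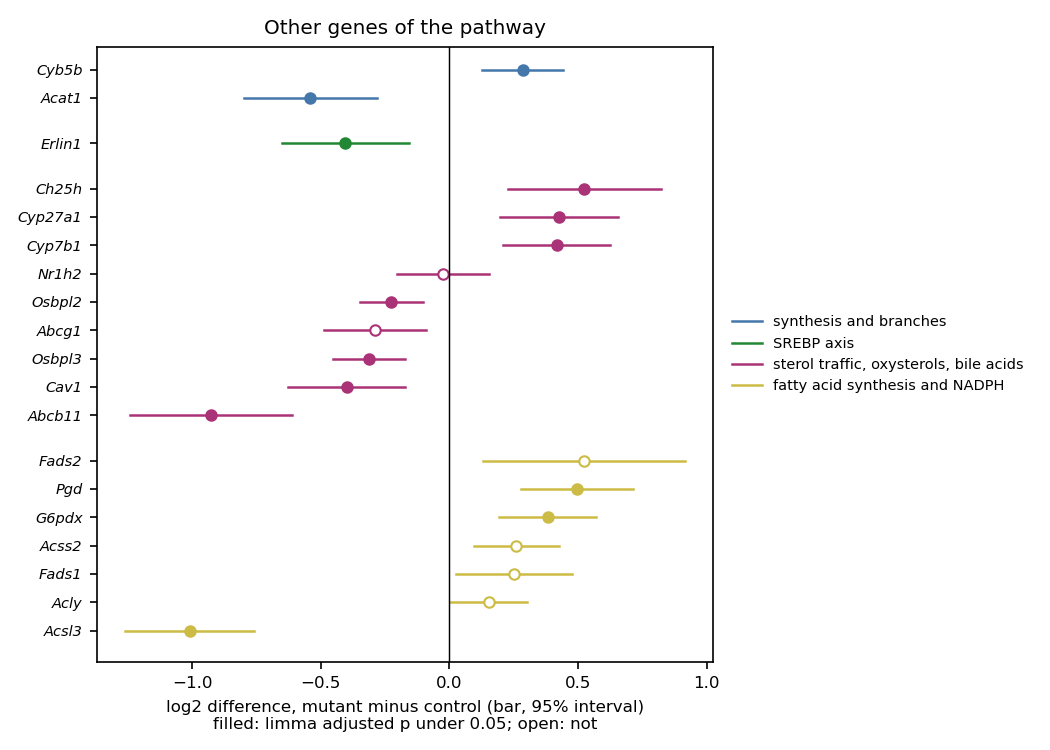
Log2 difference between mutants and controls for other genes of the pathway that were called (filled) or listed by name (open), with 95% intervals. The oxysterol enzymes CH25H, CYP27A1 and CYP7B1 lie between 0.42 and 0.52, and ACSL3 and ABCB11 lie lowest, at -1.01 and -0.93.

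Sterol traffic and its products gave 3 higher and 4 lower of 25 measured genes (28.0% called, against 9.19% of all rows). The 3 that rose make or process hydroxylated sterols. CH25H, cholesterol hydroxylase, read 73.3 to 108.5 a.u. in controls and 109.0 to 250.7 in mutants (log2 difference 0.52, SE 0.14, limma adjusted p = 0.0294). Its groups did not overlap, but the lowest mutant lay within 1 a.u. of the highest control, and the call was lost without control 2, 3 or 4 or mutant 3, 5 or 6 and with no normexp step (at most 0.0696). CYP27A1, a mitochondrial sterol hydroxylase, rose from 178.9 ± 26.5 to 267.8 ± 60.4 a.u. (0.43, adjusted p = 0.0217), with no overlap, and lost the call without control 5, without control 4 and mutant 1 together, and with no normexp step (at most 0.0823). CYP7B1, which hydroxylates oxysterols further, rose from 349.1 ± 37.4 to 492.8 ± 87.5 a.u. (0.42, adjusted p = 0.0152), and kept the call in all 20 alternatives.

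ABCB11, the bile salt export pump of liver cells, fell from 256.0 ± 72.0 to 99.9 ± 33.7 a.u. (log2 difference -0.93, SE 0.15, limma adjusted p = 0.00134), with every mutant below every control. OSBPL3 and OSBPL2, of the oxysterol-binding protein family, fell from 1032 ± 117 to 811.2 ± 26.2 a.u. (adjusted p = 0.00806) and from 880.2 ± 61.5 to 736.9 ± 44.6 (0.0226). OSBPL2 lost its call without control 5 or 6 or mutant 6, with an offset of 16, and with trend and robust variances (at most 0.0863). CAV1, the coat protein of caveolae, found in endothelium, muscle and fat, fell from 3149 ± 442 to 2370 ± 334 a.u. (adjusted p = 0.0293), a call lost without control 2, 3, 4 or 5 or mutant 1, without control 4 and mutant 1 together, and with no normexp step (at most 0.0961). The LXR target ABCG1 went from 34.9 ± 13.6 to 14.8 ± 7.9 a.u. without passing (limma adjusted p = 0.0656). Its control mean lay near the noise limit of 27.8 a.u. and its mutant mean under it, so the size of the fall is uncertain. ABCG1 passed in 4 of 19 alternatives, among them without control 1 or mutant 4 (0.00582 at the lowest). NR1H2, the gene of LXR beta, differed by -0.02 (95% interval -0.20 to 0.16).

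Around fatty acid synthesis 2 of 22 measured genes rose and 1 fell (13.6% called, against 9.19% of all rows). PGD and G6PDX, enzymes of the pentose phosphate pathway that supply NADPH for lipid synthesis and other uses, rose from 3962 ± 416 to 5698 ± 837 a.u. (log2 difference 0.50, SE 0.10, limma adjusted p = 0.00708) and from 195.8 ± 15.9 to 279.9 ± 50.3 (0.38, SE 0.09, adjusted p = 0.0148). ACSL3, an acyl-CoA synthetase of lipid droplets, fell from 1387.7 to 1997.0 a.u. in controls to 585.9 to 960.2 in mutants, with no overlap (log2 difference -1.01, SE 0.12, adjusted p = 0.00014). The acetyl-CoA suppliers ACLY and ACSS2 differed by 0.15 (0.00 to 0.30, adjusted p = 0.222) and 0.26 (0.09 to 0.43, adjusted p = 0.0502), and ACSS2 passed without control 2 and with dim rows left out (0.0211 at the lowest). The desaturases FADS1 and FADS2 differed by 0.25 (adjusted p = 0.173) and 0.52 (adjusted p = 0.0963), and FADS2 passed without mutant 2 (0.0387).

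Markers of other cells in the tissue were read beside the synthesis enzymes. Summed levels add the deposited intensities, with values below 0 taken as 0, so the brightest genes set most of each sum. In controls APOA1 and APOA4 of the enterocyte list averaged 36698 and 35820 a.u., and HBA-A1 of the blood list 23508. TTR and CPS1 of the hepatocyte list averaged 7516 and 6908 a.u. Of 13 proliferation genes 3 were called higher (BIRC5, PLK1 and CDC20) and 1 lower (MCM2), and their summed level ran from 5402 to 7011 a.u. in controls and from 6440 to 8021 in mutants, with CCNB2, CCNA2 and BUB1 under the noise limit in every mouse. CDC20 lost its call without control 3 or 5 or mutant 1 or 3, without control 4 and mutant 1 together, and with no normexp step. BIRC5 went from 549.4 ± 83.8 to 898.8 ± 138.7 a.u. (log2 difference 0.65, SE 0.11, limma adjusted p = 0.00163). Of 10 enterocyte genes 1 was called (ANPEP, higher, lost in 9 of 20 alternatives), and the summed level was 112831 to 122018 a.u. in controls and 119630 to 126347 in mutants. Villin (VIL1) read 9101 ± 1121 and 8714 ± 990 a.u. (adjusted p = 0.801), whereas the rows of the enterocyte fatty acid carriers FABP1 and FABP2 lay under the noise limit in all mice. The hepatocyte genes ALB, APOH, FGB, AHSG, SERPINC1, ASGR1 and TAT and the adipocyte genes ADIPOQ, FABP4, CFD, PLIN and RETN lay under the noise limit in every mouse. The adipocyte list still held 1 called higher (LPL) and 2 lower (CIDEC and AQP7) of 10, with sums of 5776 to 7993 a.u. in controls and 6302 to 7983 in mutants, and the hepatocyte list 1 lower (TTR) of 10, with sums of 11441 to 16467 and 8267 to 13453. Among 8 blood genes 3 were lower (HBA-A1, HBB-B2 and ERAF) and none higher, with sums of 20821 to 32394 a.u. in controls and 10743 to 20402 in mutants. Macrophage genes, of which 2 were higher (CD14 and MRC1) and 2 lower (EMR1 and CSF1R) of 10, summed to 5924 to 7410 and 6073 to 8834 a.u. CSF1R lost its call without control 1, 2 or 3 or mutant 3 and with no normexp step. Of 9 smooth muscle genes 1 was higher (CNN1, lost in 10 of 20 alternatives), with sums of 35172 to 56079 and 46232 to 63116 a.u., and of 9 acinar genes none was called, with sums of 1401 to 51036 and 664 to 25819 a.u. The called shares were 10.0% for enterocyte and hepatocyte genes and 11.1% for smooth muscle, near the 9.19% of all rows. They were 30.8% for proliferation, 30.0% for adipocyte, 37.5% for blood and 40.0% for macrophage genes. The part of any of these cell types in the sterol results was not tested.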

How the data were processed

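Gene expression was read in 12 mouse samples, 6 control and 6 mutant by their titles. The deposited intensities, 1 per gene symbol and mouse, are on a linear scale; 22.5% lay below 0 and the medians of the 12 columns ran from 41.8 to 43.4, so the values in the deposited intensity table had been background-subtracted and normalized. GenomeStudio and Partek are named in the submitters' processing notes, with no version or role. Another table, with 24 columns that could not be tied to a mouse by their headings, was not used here.

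Intensities were passed through normexp (offset 50), quantile normalized, put on the log2 scale and compared with limma 3.58.1 in R 4.3.3 (lmFit and eBayes, two-sided, Benjamini-Hochberg over 18090 rows). Quantile normalization would hide a shift of all genes. The procedure was tested on simulated data in which 200 of the 18090 rows were changed. The procedure called 52.2% of rows changed 1.5-fold, 85.1% of those changed 2-fold and 97.0% of those changed 4-fold. Of its calls 4.29% were unchanged rows. A gene that was not called is therefore not shown to be unchanged. The number of mice limits the precision.

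Members and lists were chosen with earlier results of these data known. Every member with a row was named, with called genes of the wider lists and ACLY, ACSS2, FADS1, FADS2, ABCG1 and NR1H2; NPC1 had no row. Some genes of the wider lists are counted but not reported here by name. TMEM97, the INSIG2 promoter and the stretch between ABCG5 and ABCG8 were added after their values were seen. Row symbols were matched to RefSeq for current names. Replicate numbers were not treated as pairs in the main fit. Deviations of same-numbered mice correlated at -0.097 to 0.232. For numbers 3 and 6 (0.232 and 0.231) the control correlated best with the mutant of its own number, and for the other numbers it did not. These correlations cannot exclude a pairing. Alternatives covered background, normalization, a dim-row filter, variances, array weights, the replicate block and left-out mice.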

Additional observations from a re-analysis of the deposited data

Results flagged for a closer look

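In 5 cases a reading lay apart from the rest of their group, by the gap to the nearest mouse over the group's whole range (Dixon's ratio, at its 95% critical value for 6 mice), among 62 groups examined. Chance alone flags about 1 in 20 such groups. Mutant 4 accounted for 3 of them. PMVK was highest there at 339.2 a.u. (ratio 0.656, next mutant 232.9) and STARD4 at 2683.8 a.u. (0.663, next 2061.2), and FASN was lowest there at -2.3 a.u. (0.6254, next 15.9), under the noise limit like most readings of that row. SCD1 was highest in mutant 6 at 63.0 a.u. (0.689, next 43.3). IDI1 was highest in control 2 at 22.2 a.u. (0.634, next 16.3), also under the noise limit.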

How the results depend on the processing

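Over 20 alternatives the calls of SQLE, CYP51, FDPS, MVD and INSIG2 held in each, with highest adjusted p of 0.0214, 0.038, 0.0402, 0.0383 and 0.00145. The count of called rows over the whole table was 1663 and moved to 1004 when normexp was replaced by raising values to the noise limit (the cause was not tested). Leaving out 1 mouse at a time gave 1247 to 1694 called rows, 5 to 7 called members, 4 to 5 called synthesis enzymes and 10 to 17 of the other pathway genes. With the replicate block the counts were 1702, 5, 4 and 13, and it changed no call of a member. In 24 of 31 members the sign never turned. It turned in members that were not called. With array weights TM7SF2 stood at -0.0029, EBP at -0.0072 and NPC1L1 at -0.025, and without control 4 and mutant 1 SC5D stood at -0.052 and NPC1L1 at -0.0022. Leaving out 1 mouse gave ranges with both signs in 7 members, namely -0.0445 to 0.004 for IDI1, -0.0199 to 0.0702 for TM7SF2, -0.0207 to 0.041 for EBP, -0.0298 to 0.0704 for SC5D, -0.0662 to 0.131 for NPC1L1, -0.0093 to 0.1326 for SOAT2 and -0.144 to 0.012 for FASN. Rows under the noise limit, IDI1, ABCA1 and FASN among them, and the 4 members with no row set what the array could show here. IDI1, ABCA1 and FASN have no value where dim rows were left out.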
